A study of Mus musculus with 7 samples.

Results

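Glutamate receptors and the proteins that hold them at the postsynaptic membrane were followed in mouse motor cortex. The 39 genes were taken by name from the protein-coding rows of a table of 54532 genes. They were the AMPA (Gria1 to Gria4), NMDA (Grin), kainate (Grik1 to Grik5), delta (Grid) and metabotropic (Grm) receptor genes. With them were Cacng2 to Cacng8 (the TARPs and the related gene Cacng6), the cornichons Cnih2 and Cnih3, and the scaffolds Dlg1 to Dlg4. RNA was sequenced from 3 wild-type (WT) libraries and 4 libraries labelled cKO, a conditional knockout. All mice, in both groups, had received a virus named GA100 in the left and right lateral ventricles on postnatal day 0, and tissue was taken 3 months later, after behavioural tests. The series title concerns TIA1 stress granules and mice modelling C9orf72 poly-GA disease, in which a repeat protein of glycine and alanine accumulates. The labels used here name neither the deleted gene nor a Cre driver, no uninjected mice were analysed here, and nothing says that each library came from a separate mouse, so that p-values measure the spread between libraries, which may be technical.

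Glutamate is the main excitatory transmitter of the cortex. AMPA, NMDA and kainate receptors are ion channels built of 4 subunits each and opened by glutamate, whereas metabotropic receptors act through G proteins. TARPs and cornichons are membrane proteins that accompany AMPA receptors and alter their trafficking and gating, and the Dlg proteins, among them PSD-95 (Dlg4), anchor receptors in the postsynaptic density.

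Depth was alike in all libraries, with 15181390 to 16463721 counts. Tia1, the gene of the series title, was at 60.6, 95.8 and 68.9 CPM (read counts scaled to TMM-adjusted library size) in WT and at 81.4, 80.3, 72.7 and 81.9 CPM in cKO, with overlapping groups and a log2 difference of 0.07 ± 0.13 (SE; edgeR adjusted p = 0.914). The counts do not show which exons were deleted, so directions below refer to the libraries labelled cKO. Libraries differed in composition beyond their groups. cKO replicate 3 stood apart, with 7.54% mitochondrial counts against 5.50% to 6.40% in the others and chi-square statistics per degree of freedom of 15.6 to 23.1 against every other library, where the remaining pairs had 4.42 to 16.1. WT replicate 1 and cKO replicate 1 had 15217 and 19151 counts of Xist with 0 of Ddx3y, and the other 5 libraries had 1073 to 1386 counts of Ddx3y. The 10 markers of excitatory cortical neurons were all detected, and none of the marker lists had a gene at 0 in every library.

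Of the 39 genes, 36 had enough counts to be tested, and 0 of these 36 passed an adjusted p under 0.05 in the edgeR quasi-likelihood test, as was the case for all 16308 genes tested (0.0% called). DESeq2, limma-voom and the edgeR fit with the replicate number as a block also called 0 of these genes, against 0.0193%, 0.0% and 0.0123% of all genes. DESeq2 gave no p-value for Cacng5, so that gene was not tested by it. At an unadjusted p under 0.05, 4 of the 36 stood out, against 7.14% of all genes: Cacng8, Grik5 and Grik4 with lower values in cKO (2.91% of all genes) and Grm4 with higher values (4.22% of all genes). By the same unadjusted measure limma-voom had 3 (6.78% of the 16308 genes) and the block fit 5 (7.52%). DESeq2, run without the filter on low counts, tested 38 of the 39, all but Cacng5, and had 4. Its share of all genes, 3.43%, is over 31257 genes and is not on the same base as the other shares. The groups did not overlap in CPM for 4 of the 36 genes, against 7.38% of all genes: Cacng8, Grik4 and Grik5 lay lower in cKO (3.42% of all genes) and Grik1 higher (3.97% of all genes). The log2 difference was negative for 19 of the 36 and positive for 17, with a median of -0.03, whereas 48.2% of all genes were negative and their median was 0.01. Leaving out 1 library moved these counts both ways. Without cKO replicate 3, 22 were negative and 14 positive, with a median of -0.08. Without WT replicate 3, 15 were negative and 21 positive, with a median of 0.01. Without WT replicate 2, 25 of the 37 genes then tested were negative and 12 positive, with a median of -0.07. In bulk tissue, fewer cells of a type and less RNA per cell cannot be told apart. The 3 genes not tested were Grin3b, Cacng6 and Grm6. The glycine-binding NMDA subunit gene Grin3b had 6 to 16 counts, and Cacng6, a gene related to the TARPs, had 1 to 15. Grm6, which is known for its role in retinal bipolar cells, had 1 count in WT replicate 2 and 0 in the others.

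Promoter sequences were taken from RefSeq (GRCm38.p6) as windows of 300 bases, 250 before and 50 after a start site. A window was found for 27 of the 39 genes, 39 windows in all. The 250 bases before the start are shown for Grik5, Grik4 and Gria2. Grik5 and Grik4 encode the high-affinity kainate subunits and were lower in every cKO library than in any WT library. Gria2 had the only window of the 39 with the RE1 core described below. Its level in cKO replicate 3 stood apart from the other cKO libraries, as did those of Cacng2, Cacng5 and Dlg3, which are not shown. Cacng8, like Grik5 and Grik4 lower in every cKO library, is not shown because its window starts at a site 3359 bases inside the gene start of the count table. That window held 0 of the motifs searched and was 50% G and C. The sequences are written 5′ to 3′, and capitals mark GGGCGG (the Sp1 GC box) in Grik5 and Grik4 and the core of the RE1 element, bound by the repressor REST, in Gria2.
Grik5, chr7:25072370-25072619, minus strand: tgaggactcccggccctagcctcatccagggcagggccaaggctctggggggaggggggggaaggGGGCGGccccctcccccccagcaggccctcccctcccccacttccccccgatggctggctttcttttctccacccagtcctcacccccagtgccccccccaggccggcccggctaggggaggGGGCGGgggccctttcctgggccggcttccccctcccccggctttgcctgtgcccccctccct
Grik4, chr9:42944372-42944621, minus strand: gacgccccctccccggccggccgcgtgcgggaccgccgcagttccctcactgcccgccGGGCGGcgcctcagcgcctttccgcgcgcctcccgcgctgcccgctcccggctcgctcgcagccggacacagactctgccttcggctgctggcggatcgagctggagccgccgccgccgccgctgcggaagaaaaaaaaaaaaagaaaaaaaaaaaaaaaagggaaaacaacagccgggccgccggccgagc
Gria2, chr3:80802836-80803085, minus strand: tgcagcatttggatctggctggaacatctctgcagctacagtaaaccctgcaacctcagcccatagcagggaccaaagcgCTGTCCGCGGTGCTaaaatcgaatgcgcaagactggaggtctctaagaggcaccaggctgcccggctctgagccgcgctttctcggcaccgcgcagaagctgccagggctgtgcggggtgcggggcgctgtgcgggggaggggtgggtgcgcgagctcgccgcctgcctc
GGGCGG, searched on both strands, was in 18 of the 39 windows, from 16 genes, and in 35.7% of all 32851 windows. Grik5 held it at positions -185 and -63 counted from the start site, and Grik4 at -192 and, on the other strand, at 37 bases after the start. The windows were rich in G and C, at 72.0% in Grik5 and 70.0% in Grik4, against a median of 60.7% over the windows of these families and 52.7% over all windows. The RE1 core, searched on both strands as AGCACC and GGACAG with 2 bases between them, was found in 1 of the 39 windows, that of Gria2 (-170, on the opposite strand), and in 0.0517% of all windows. CACGTG was in 4 windows (7.15% of all), TATAAA in 3 windows (13.6% of all), and the CRE TGACGTCA in 0 of the 39 (1.79% of all). These matches describe letters, not sites at which a factor was bound.

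Levels between genes are given as the authors' FPKM, which divide by gene length. The gene with the highest level was Cnih2, at 133 ± 13.4 FPKM in WT (mean ± SD, n = 3) and 117 ± 10.5 in cKO (n = 4), followed by Cacng7 and Gria1. Summed over the genes of a family, AMPA subunits held 154 ± 8.23 FPKM in WT and 148 ± 12.2 in cKO, and NMDA subunits 110 ± 8.20 and 103 ± 4.67. Kainate subunits held 74.8 ± 6.71 and 68.7 ± 1.47, TARPs with Cacng6 162 ± 7.62 and 159 ± 5.98, and the Dlg genes 147 ± 7.60 and 138 ± 1.14. Grin3b was near the bottom, at 0.212 FPKM in WT and 0.158 in cKO.

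**Figure D1:**
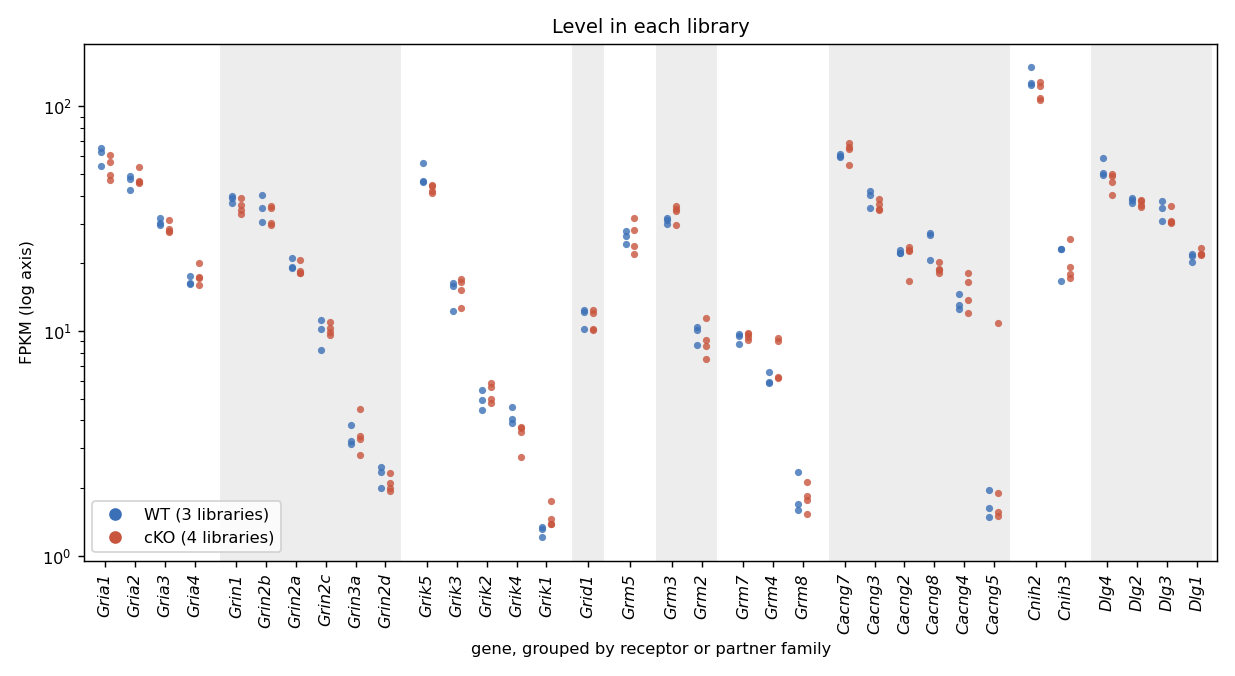
FPKM (log axis) of 34 of the 36 genes tested, ordered within each family by mean level, with 1 point per library for the 3 WT and 4 cKO libraries. Cnih2 lies at the top with means of 133 and 117 FPKM, WT and cKO points lie close together for most genes, and 1 cKO point of Cacng5 lies far above the others.

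The AMPA receptor subunits form the channel that carries fast excitatory transmission. Gria1 (ENSMUSG00000020524, chr11:57011387-57330244, mm10) encodes GluA1, a subunit delivered to synapses in potentiation, and was at 379, 330.0 and 393 CPM in WT and 286, 346, 364 and 299.7 CPM in cKO. The groups overlapped, with cKO replicates 1 and 4 the lowest. The log2 difference was -0.18 ± 0.10 (SE; 95% interval -0.40 to 0.04; edgeR adjusted p = 0.728). Gria2 encodes GluA2, whose edited form makes the channel impermeable to calcium, and had 657, 742 and 757 CPM in WT and 714, 722, 829 and 730.2 CPM in cKO. The 2 groups overlapped, with cKO replicate 3 the highest, and the log2 difference was 0.06 ± 0.09 (edgeR adjusted p = 0.902). Gria3 and Gria4, which encode the remaining subunits, were at 30.6 and 16.7 FPKM in WT and 28.8 and 17.7 FPKM in cKO, log2 differences of -0.08 ± 0.07 and 0.09 ± 0.09 (edgeR adjusted p = 0.833 for both).

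NMDA receptors pass calcium when glutamate binds while the membrane is depolarised. Grin1 (ENSMUSG00000026959, chr2:25291181-25319187), the obligatory subunit, was at 379, 364 and 388 CPM in WT and 383, 356, 333 and 323 CPM in cKO. Its groups overlapped, and the log2 difference was -0.11 ± 0.08 (95% interval -0.29 to 0.06; edgeR adjusted p = 0.776). An antisense gene, Grin1os, overlaps Grin1 over 1307 exonic bases, and the strand used in counting is not given in the sources used here, so its counts are uncertain. Grin2a and Grin2b, which encode subunits that set the channel's kinetics, were at 19.8 and 35.3 FPKM in WT and 18.9 and 32.8 FPKM in cKO. They had log2 differences of -0.06 ± 0.08 and -0.10 ± 0.11, and Grin2c, Grin2d and Grin3a had 0.06 ± 0.11, -0.12 ± 0.13 and 0.05 ± 0.14 (edgeR adjusted p from 0.861 to 0.945 over these 5). None had groups without overlap.

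Kainate receptors modulate transmission on both sides of the synapse, and Grik4 and Grik5 encode subunits that form channels only together with Grik1, Grik2 or Grik3. Grik5 (ENSMUSG00000003378, chr7:25009849-25072346) was at 288, 239 and 241 CPM in WT and at 230.1, 219.8, 213 and 233 CPM in cKO. Its log2 difference was -0.20 ± 0.08 (95% interval -0.38 to -0.01; edgeR adjusted p = 0.694). Every cKO library lay below every WT library, and WT replicate 1 was far above the other two: without it the difference was -0.11. Grik4 (ENSMUSG00000032017, chr9:42518135-42944493) had 27.3, 23.4 and 24.2 CPM in WT and 22.6, 21.4, 16.4 and 22.2 CPM in cKO. Its groups also did not overlap, cKO replicate 3 being the lowest, and the difference was -0.28 ± 0.13 (95% interval -0.55 to -0.0017; edgeR adjusted p = 0.696). Without cKO replicate 3 it was -0.19.

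Grik1 (ENSMUSG00000022935, chr16:87895900-88290265) stood the other way, with 8.996, 8.89 and 8.12 CPM in WT and 9.95, 9.38, 11.7 and 9.34 CPM in cKO. Its lowest cKO library was above its highest WT library, and the log2 difference was 0.22 ± 0.14 (95% interval -0.08 to 0.51; edgeR adjusted p = 0.752). Leaving out cKO replicate 3 gave 0.13. Grik2 and Grik3, the other low-affinity subunits, were at 4.95 and 14.8 FPKM in WT and 5.32 and 15.4 FPKM in cKO, and differed by 0.11 ± 0.10 and 0.06 ± 0.12 (edgeR adjusted p = 0.824 and 0.919). Grid1 (ENSMUSG00000041078, chr14:34820108-35583379), a delta receptor, which binds cerebellin and related synaptic organisers rather than glutamate, was at 72.3, 61.3 and 74.0 CPM in WT and 61.1, 74.8, 71.8 and 61.0 CPM in cKO. Its groups overlapped, and the log2 difference was -0.04 ± 0.10 (edgeR adjusted p = 0.938).

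**Figure D2:**
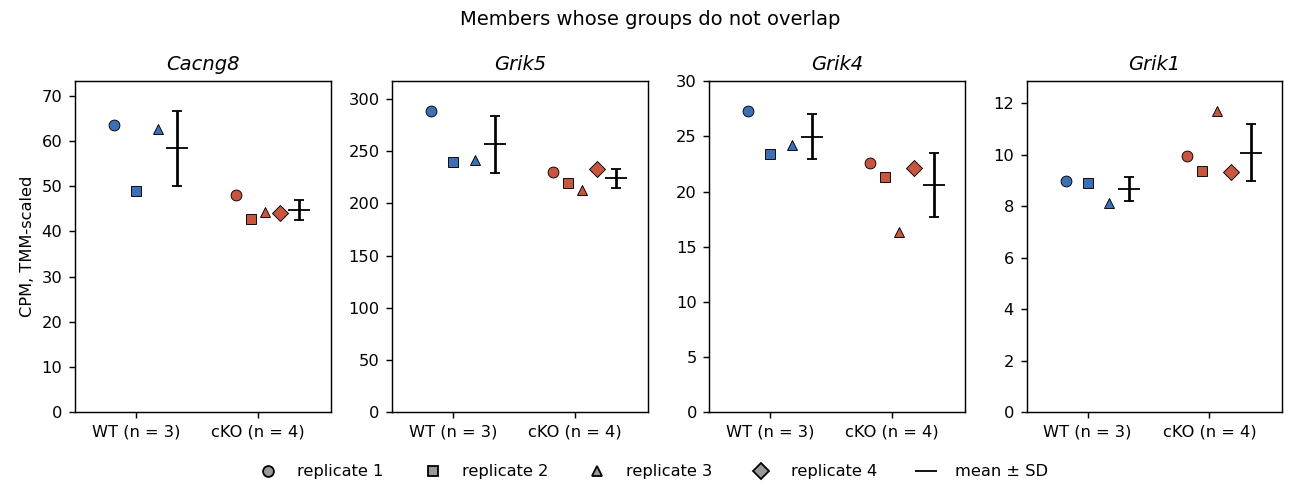
CPM of the 4 genes whose WT and cKO libraries did not overlap, with 1 point per library and the mean ± SD beside each group. Cacng8, Grik5 and Grik4 lie lower in all 4 cKO libraries and Grik1 higher, and the nearest WT and cKO points are close in each panel.

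Metabotropic receptors fall into group I, coupled to phospholipase C, and groups II (Grm2, Grm3) and III (Grm4, Grm6, Grm7, Grm8), coupled to inhibitory G proteins. Grm5 (ENSMUSG00000049583, chr7:87584168-88134907), the main group I receptor of the forebrain, was at 269.7, 252 and 286 CPM in WT and 228, 291, 324 and 246 CPM in cKO. Its cKO libraries spanned a wider range than WT on both sides, and the log2 difference was 0.02 ± 0.11 (edgeR adjusted p = 0.981). Grm3 (ENSMUSG00000003974, chr5:9485541-9725170), much expressed in astrocytes, was at 90.6, 97.9 and 94.8 CPM in WT and 91.3, 105, 106 and 110.0 CPM in cKO. It overlapped in cKO replicate 1 alone, and the log2 difference was 0.13 ± 0.08 (edgeR adjusted p = 0.757). Grm2, a presynaptic autoreceptor at 9.75 FPKM in WT and 9.15 in cKO, differed by -0.09 ± 0.13 (edgeR adjusted p = 0.904).

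Grm4 (ENSMUSG00000063239, chr17:27422387-27521403), a presynaptic group III receptor, was at 34.9, 35.7 and 39.3 CPM in WT and at 37.3, 54.2, 55.5 and 37.5 CPM in cKO. The log2 difference was 0.33 ± 0.15 (95% interval 0.01 to 0.65; edgeR adjusted p = 0.696). The value rested on cKO replicates 2 and 3, since the other 2 cKO libraries lay within the WT range: with both omitted it was 0.03. The list of 11 striatal medium spiny neuron markers moved with these libraries, at 1122, 1316 and 1452 summed CPM in WT and 1191, 2101, 1626 and 1356 in cKO. Of its 11 genes, 11 had positive log2 differences. Other lists were also highest in cKO replicates 2 and 3. Among them, GABAergic interneuron markers were at 1188 and 1519 summed CPM there against 968 to 1091 in WT. Layer 6 markers were at 266 and 304 against 203 to 256 in WT. The part of these lists in Grm4 was not tested. Grm7 (ENSMUSG00000056755, chr6:110645581-111567230), the group III receptor with the highest FPKM, was at 51.2, 57.2 and 56.1 CPM in WT and 58.4, 57.5, 55.1 and 53.9 CPM in cKO, with a log2 difference of 0.04 ± 0.08 (edgeR adjusted p = 0.932), and Grm8 differed by -0.04 ± 0.15 (edgeR adjusted p = 0.967).

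TARPs bind AMPA receptors and bring them to the synapse. Cacng8 (ENSMUSG00000053395, chr7:3390683-3415648), which encodes TARP gamma-8 and is enriched in forebrain neurons, was at 63.6, 48.8 and 62.6 CPM in WT and 48.0, 42.8, 44.3 and 44.0 CPM in cKO. All 4 cKO libraries lay below the 3 WT libraries, by a narrow margin at WT replicate 2, and the log2 difference was -0.38 ± 0.10 (95% interval -0.60 to -0.16; edgeR adjusted p = 0.679). Leaving out 1 library at a time gave -0.51 to -0.32. The 10 markers of excitatory neurons, which express Cacng8, had negative log2 differences for 10 of 10 genes (median -0.23). Their summed levels were 6541 to 7148 CPM in WT and 5238 to 6356 in cKO. Lists for cortical layers were mixed. Upper layer and layer 6 markers each had 5 positive and 3 negative log2 differences (medians 0.05 and 0.03), and layer 5 markers 3 and 5 (median -0.14). The part of these markers in the value was not tested. Oligodendrocyte markers had positive log2 differences for 10 of 10 genes (median 0.39), with overlapping sums of 3860 to 5898 and 4198 to 8331 CPM, and their part was likewise not tested. Cacng7 (ENSMUSG00000069806, chr7:3332955-3368221), the neighbour of Cacng8 and the TARP gene with the highest FPKM, was at 149.6, 147 and 146 CPM in WT and 169, 134, 159.9 and 158 CPM in cKO, with a log2 difference of 0.08 ± 0.08 (edgeR adjusted p = 0.865).

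Cacng5 (ENSMUSG00000040373, chr11:107874605-107915055) was at 5.69, 7.53 and 6.27 CPM in WT and at 6.09, 7.38, 41.5 and 5.83 CPM in cKO. Only cKO replicate 3 was high, the other 3 cKO libraries lying within the WT range: the log2 difference of 1.22 ± 0.62 (95% interval -0.13 to 2.56; edgeR adjusted p = 0.713) was -0.02 without it. The olfactory bulb markers were highest in the same library, at 404 summed CPM against 122.6 to 163.9 in the other cKO libraries and 133 to 139 in WT, among them Cdhr1 at 102.7 CPM against 1.06 to 2.53 in the other 6 libraries. Further lists were also highest in cKO replicate 3. Hippocampal and thalamic markers were at 406 summed CPM there, against 291 to 318 in the other cKO libraries and 280 to 321 in WT. GABAergic interneuron markers were at 1519 against 1062 to 1188 and 968 to 1091, and layer 6 markers at 304 against 200 to 266 and 203 to 256. Striatal markers were highest in cKO replicate 2 instead. The part of these lists in the Cacng5 value was not tested. Cacng2 (stargazin), Cacng3 and Cacng4, at 22.5, 39.2 and 13.4 FPKM in WT and 21.5, 36.2 and 15.1 FPKM in cKO, differed by -0.05 ± 0.11, -0.11 ± 0.08 and 0.17 ± 0.13 (edgeR adjusted p = 0.931, 0.791 and 0.785).

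**Figure D3:**
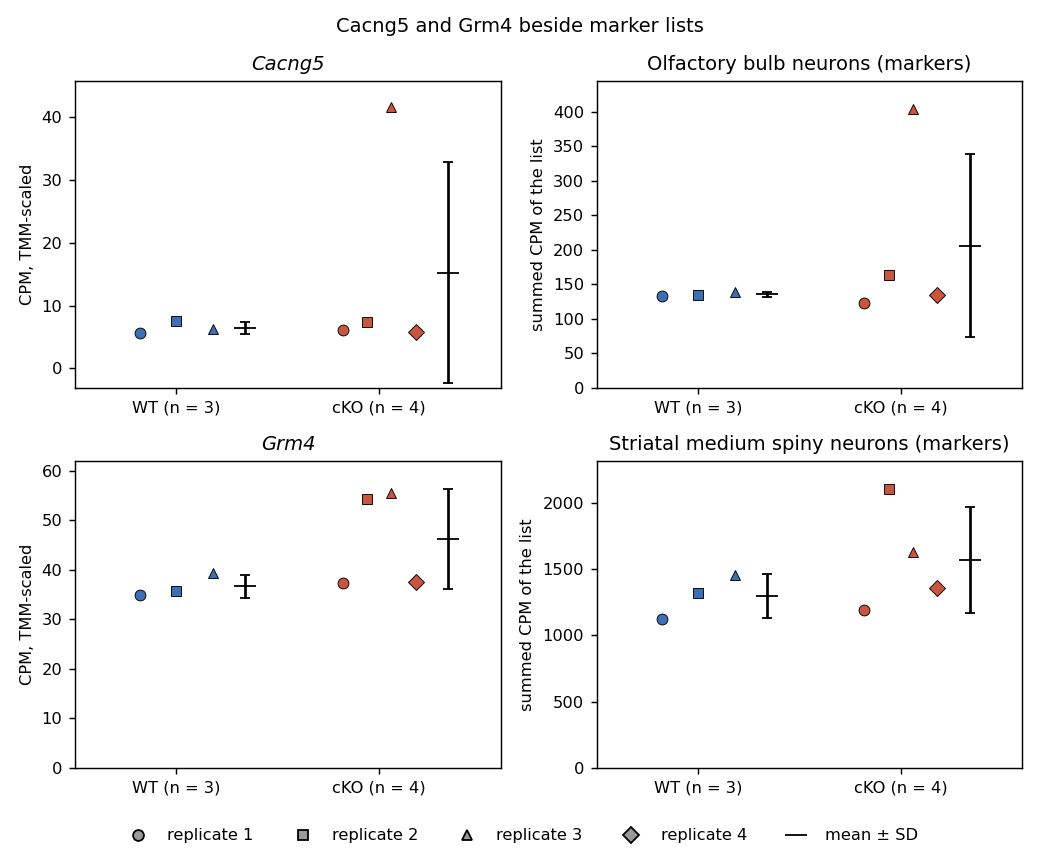
CPM of Cacng5 and Grm4 (left) and summed CPM of olfactory bulb and striatal marker lists (right), with 1 point per library and mean ± SD. Cacng5 and the olfactory bulb list are highest in cKO replicate 3, and Grm4 and the striatal list are highest in cKO replicates 2 and 3, with the order of those 2 reversed.

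Cnih2 (ENSMUSG00000024873, chr19:5092871-5098418), a cornichon that slows AMPA receptor closing, was at 183, 155 and 157 CPM in WT and 153, 133, 158 and 135 CPM in cKO. The groups overlapped in cKO replicate 3, and the log2 difference was -0.19 ± 0.09 (95% interval -0.39 to 0.01; edgeR adjusted p = 0.704). Cnih3 differed on the log2 scale by -0.07 ± 0.14 (edgeR adjusted p = 0.933). Dlg4 (ENSMUSG00000020886, chr11:70016942-70047522), which encodes PSD-95, was at 776, 671 and 657 CPM in WT and 673, 617, 531 and 654 CPM in cKO. WT replicate 1 was highest and cKO replicate 3 lowest, with overlap between, and the log2 difference was -0.18 ± 0.10 (edgeR adjusted p = 0.720). Dlg1, Dlg2 and Dlg3, which encode related scaffolds, were at 21.2, 38.0 and 34.6 FPKM in WT and 22.3, 37.1 and 31.9 FPKM in cKO, and differed by 0.08 ± 0.07, -0.03 ± 0.07 and -0.11 ± 0.09 (edgeR adjusted p from 0.805 to 0.947).

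**Figure D4:**
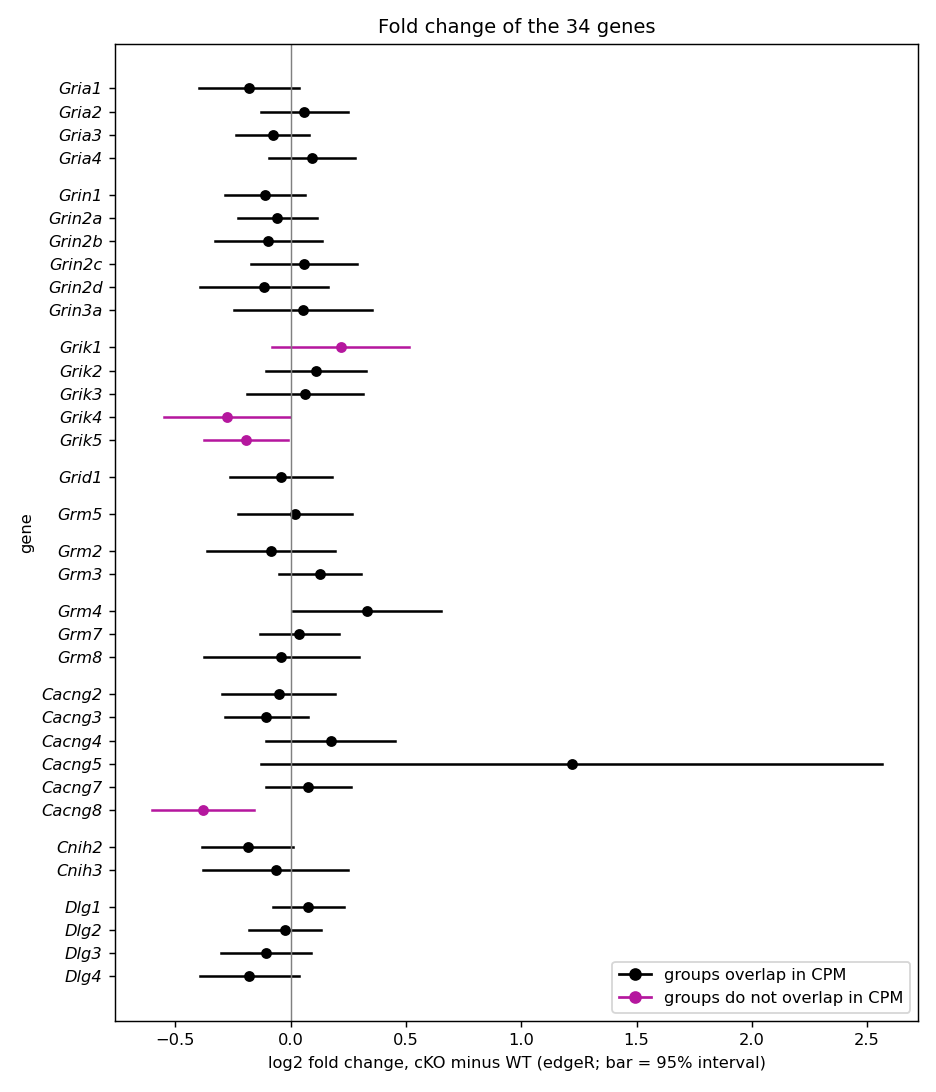
Log2 fold change (cKO minus WT) of 34 of the 36 genes tested, in the edgeR fit, with 95% intervals. The intervals of Cacng8, Grik5 and Grik4 lie below 0 and that of Grm4 above it before adjustment, and Cacng5 has the widest, from -0.13 to 2.56.

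The make-up of each receptor or partner family was compared as a share of its summed FPKM within a library, which does not depend on library scaling. Of the 8 shares, 0 passed an exact two-sided permutation test, which with 3 and 4 libraries cannot go below p = 0.0571. Cacng8 held 26.2%, 22.7% and 25.5% of the type I TARPs (Cacng2, Cacng3, Cacng4 and Cacng8) in WT and 21.6%, 19.1%, 21.9% and 20.2% in cKO. The groups did not overlap, and the mean was 24.8% ± 1.87 (SD) in WT and 20.7% ± 1.27 in cKO, a difference of -4.09 percentage points at the smallest p the design allows, 0.0571 by exact permutation (adjusted over the 8 shares, 0.457). Gria2 took 28.0%, 32.1% and 29.8% of AMPA subunits in WT and 32.9%, 31.4%, 32.3% and 33.0% in cKO, with overlap and a difference of 2.47 points (exact permutation p = 0.114, adjusted 0.457). Dlg4 took 36.01% of the Dlg genes in WT and 33.7% in cKO, a difference of -2.34 points, and Grm3 differed by 2.60 points as a share of group II (exact permutation p = 0.286 for each, adjusted 0.571). Grin2a held 36.1% ± 2.28 of Grin2a plus Grin2b in WT and 36.6% ± 2.08 in cKO, a difference of 0.569 points (exact permutation p = 0.8). The shares of Grik2 among Grik1 to Grik3 and of Cnih2 in both cornichons differed by 0.263 and -0.977 points. The share of Grik4 and Grik5 together among the kainate subunits, chosen after their values were seen and not tested, was 71.8% ± 2.23 in WT and 67.7% ± 3.25 in cKO.

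**Figure D5:**
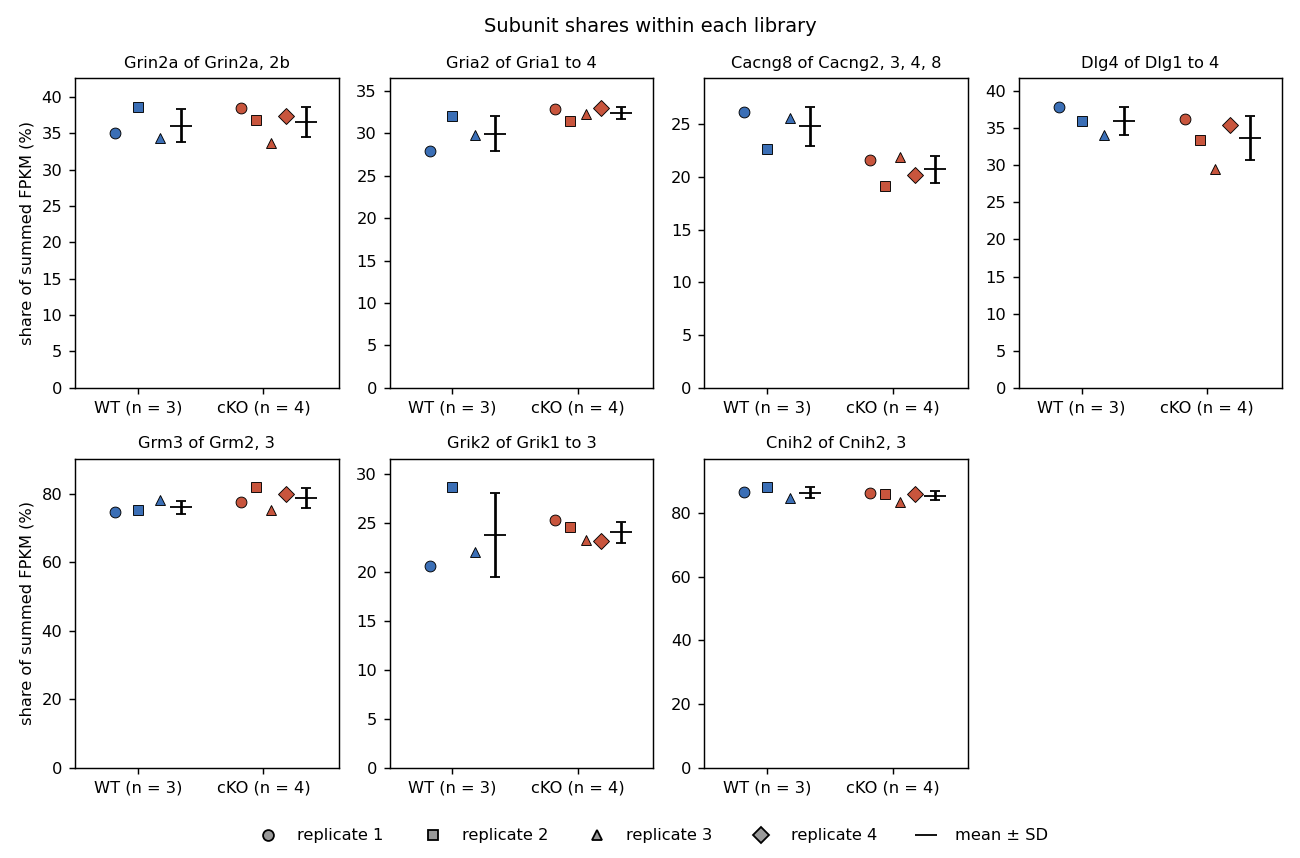
Percent of summed FPKM within a family held by 1 gene, with 1 point per library and mean ± SD, for 7 shares. The Cacng8 share is the 1 panel in which the 3 WT points (22.7% to 26.2%) lie wholly above the 4 cKO points (19.1% to 21.9%).

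Other genes of the same synapses were read from 6 lists, each with 0 genes past the edgeR threshold. Counts at an unadjusted p under 0.05 are to be read against 4.22% of all genes higher and 2.91% lower. Of 19 postsynaptic scaffold genes, 5 had positive and 14 negative log2 differences (median -0.09), and 1 higher and 1 lower had p under 0.05 before adjustment. The summed level was 6342 to 7080 CPM in WT and 5424 CPM in cKO replicate 3 against 6207 to 6566 CPM in the other cKO libraries, and without that library the list had 4 positive and 15 negative (median -0.06). The listed excitatory neuron markers were negative for 10 of 10 genes, whereas upper layer and layer 6 markers were each 5 positive and 3 negative. The part of these markers in the scaffold list was not tested. Homer1, which links group I receptors to the scaffold and whose short form is induced by activity, was at 421 ± 46.7 CPM in WT and 538 ± 67.3 in cKO (log2 difference 0.36 ± 0.11, edgeR adjusted p = 0.679). It is also 1 of 12 immediate early genes listed, genes induced by neuronal activity, of which 10 were positive and 2 negative (median 0.30), with 5 higher and 0 lower at p under 0.05 before adjustment and 0 past the threshold; their part in the Homer1 value was not tested. Iqsec2, an exchange factor for Arf proteins, was at 241 ± 24.6 and 204 ± 15.4 CPM (-0.25 ± 0.09, edgeR adjusted p = 0.694). Among 24 tested AMPA receptor auxiliary and trafficking genes, 10 were positive and 14 negative (median -0.03), and 1 higher and 4 lower had p under 0.05 before adjustment. The 1 higher was Shisa8, with a log2 difference of 1.31 that was 0.32 without cKO replicate 3. Nptx1, a pentraxin that gathers AMPA receptors, was at 588 ± 60.9 CPM in WT and 497 ± 27.7 in cKO (log2 difference -0.24 ± 0.09), and Gsg1l, an auxiliary subunit, at 118 ± 6.66 and 101 ± 8.28 (-0.23 ± 0.08).

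The 8 tested kainate and delta receptor partners were evenly divided, 4 and 4, with a median of 0.01 and 0 at p under 0.05 before adjustment. Among 20 kinases, phosphatases and associated genes of the postsynaptic density, 7 were positive and 13 negative (median -0.05), with 0 higher and 1 lower at p under 0.05 before adjustment. Camk2a, the most abundant postsynaptic kinase and also 1 of the listed excitatory neuron markers, differed by -0.21 ± 0.12 on the log2 scale. The part of those markers in its value was not tested. Of 18 genes acting downstream of metabotropic receptors, 6 were positive and 12 negative (median -0.03), and 1 higher and 1 lower had p under 0.05 before adjustment. The higher was Rgs4, which shortens G protein signals, at 486 ± 15.9 and 563 ± 44.8 CPM (0.21 ± 0.08). The 20 genes of glutamate transport and metabolism were 14 positive and 6 negative (median 0.02), with 3 higher and 1 lower at p under 0.05 before adjustment, but 9 positive and 11 negative (median -0.01) without cKO replicate 3. Slc38a2, which imports glutamine, was at 211 ± 15.9 CPM in WT and 263 ± 6.35 in cKO (log2 difference 0.32 ± 0.08, edgeR adjusted p = 0.669), and the vesicular transporter gene Slc17a6 at 21.7 ± 3.49 and 29.3 ± 3.00 (0.43 ± 0.13). Slc17a7, the far more abundant vesicular transporter of cortical excitatory neurons, lay the other way, at 1305 ± 184 CPM in WT and 1058 ± 59.2 in cKO (log2 difference -0.30 ± 0.10, edgeR adjusted p = 0.679); it is 1 of the excitatory neuron markers and was named after its values were seen.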

How the data were processed

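RNA-seq of 7 motor cortex libraries was read from the authors' deposited tables, 1 of raw gene counts and 1 of FPKM for the same 54532 genes, with gene lengths. The submitters' processing notes list mm10, featureCounts 1.5.0-p3 and DESeq2 1.20.0. No aligner, annotation release, strand setting or rule for multiply matching reads is named there. Genes whose exons overlap another gene therefore have uncertain counts, among them Grin1, Grin2d, Grin3b, Grm2, Grm6 and Cacng2. Cacng8 and Grik4 share 91 and 59 exonic bases with Gm23450 and Gm24420 on the same strand. FPKM deposited by the authors were used for levels between genes and for shares. The deposited gene lengths entered no test directly. The share tests and the log2(FPKM) fits used FPKM, which divide by gene length.

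The deposited counts were tested with edgeR 4.0.16 (R 4.3.3): TMM, default filterByExpr (16308 genes), genotype as the factor, quasi-likelihood F test, Benjamini-Hochberg adjustment. The SE was derived from the log2 fold change and its F statistic; CPM use TMM-scaled sizes. Shares used exact permutation tests (SciPy 1.17.1). The edgeR script was first tested on simulated data. Alternatives used DESeq2 1.42.0 and limma 3.58.1. A count of 3 was the floor below which no fold is given. No pair of libraries agreed within sampling noise (chi-square per degree of freedom 4.42 to 23.1). Replicates numbered 1, 2 and 3 correlated at 0.110, 0.128 and 0.122 in deviations from group means, above the 0.1 required. Unlike numbers reached 0.210 (WT replicate 2 with cKO replicate 4), so these correlations do not identify pairs. The numbers entered only the block fit and the mean paired differences of shares. The main fit and the permutation tests left them out.

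The genes and lists were chosen with earlier results of these data known. Named with every library's value were, in each family, the gene with the highest mean FPKM and that with the smallest p, and all whose groups did not overlap; of each other list the 2 with the smallest p and the 1 with the highest FPKM, of which some are printed. Results of some genes and of 1 share are not reported here. Motifs were searched in RefSeq windows. Figures were drawn with matplotlib 3.10.9.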

Additional observations from a re-analysis of the deposited data

Results flagged for a closer look

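In 44 values tested over the 4 cKO libraries (CPM of each gene tested and the 8 shares), a single library stood apart from the other 3 in 5, where chance alone flags about 5% of such groups. All 5 were cKO replicate 3, which also had the highest mitochondrial share (7.54%) and the highest olfactory bulb marker level. Gria2 was at 829 CPM there and at 714 to 730.2 CPM in the other cKO libraries. Cacng2 was at 91.6 CPM against 127 to 132 CPM, Cacng5 at 41.5 CPM against 5.83 to 7.38 CPM, and Dlg3 at 209 CPM against 178 to 182 CPM. The share of Cnih2 in Cnih2 plus Cnih3 was 83.4% against 85.9% to 86.4%, flagged only just, with a gap of 0.8294 of the range.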

How the results depend on the processing

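Of the 36 genes tested, 21 kept the sign of their log2 difference in each of 22 other settings (25 with all libraries or 2 omitted, 23 leaving out 1 library at a time), and 2 passed the threshold in any. With no filter on low counts, edgeR called 198 of 31277 genes. Of the 39 genes of these families then tested, 2 were called: Cacng5 (edgeR adjusted p = 4.47e-10) and Cacng8 (-0.39, edgeR adjusted p = 0.028). Cacng5 was high in cKO replicate 3 alone, at 614 counts against 93 to 122 in the others. All genes called numbered 3 with DESeq2, 3 with log2(FPKM + 1) and no filter, 2 with the replicate block and 1 with WT replicate 1 and cKO replicate 3 omitted, and 0 to 3 leaving out 1 library.

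The count of these genes at an unadjusted p under 0.05 was 4, against 7.14% of all genes. With no filter it was 8 of the 39 then tested, against 6.68% of all genes. Upper quartile scaling gave 6 (7.17% of all genes). It was 2 with log2(FPKM + 1) (6.98%), log2(FPKM + 0.1) (7.05%) and log2(FPKM + 1) unfiltered (5.22%). A Y-linked covariate also gave 2 (6.87%). So did omitting cKO replicates 2 and 3 (6.89%), and omitting WT replicate 1 and cKO replicate 3 (6.24%). The count was 1 to 8 leaving out 1 library, 1 without WT replicate 1 and 8 without cKO replicate 1. The share of all genes went the same way, from 7.14% to 3.34% and 9.91%. The replicate block gave 5; it changed no call among the 36.

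Signs reversed near 0: Grm5 was -0.0056 with upper quartile scaling, -0.0022 with log2(FPKM + 1), filtered or not, -0.0027 with log2(FPKM + 0.1), and -0.0071 with the Y-linked covariate, and Grm8 was 0.046 with the block. With cKO replicates 2 and 3 omitted, chosen after seeing the data, Grin3a was -0.14, Grik2 -0.0070, Grik3 -0.070, Grm5 -0.19, Cacng2 0.038, Cacng4 -0.052 and Cacng5 -0.13. With WT replicate 1 and cKO replicate 3 omitted, also chosen after, Gria2 was -0.054, Grm5 -0.077, Grm7 -0.0017, Cacng2 0.045 and Cacng5 -0.11. Leaving out 1 library gave ranges across 0 for Gria2 (-0.0058 to 0.10), Grm7 (-0.016 to 0.057), Grin2c (-0.066 to 0.15), Grin3a (-0.091 to 0.14), Grik3 (-0.061 to 0.14), Grm5 (-0.086 to 0.084), Grin2b (-0.20 to 0.0045), Grid1 (-0.13 to 0.0078), Grm8 (-0.15 to 0.15), Cnih3 (-0.21 to 0.011), Cacng2 (-0.11 to 0.048) and Cacng5 (-0.024 to 1.48), and for the shares of Grin2a (-0.253 to 1.87) and Grik2 (-1.32 to 2.71). The cause of these moves was not tested. The Cacng8 share was -5.16 to -3.41 points leaving out 1 library and -3.93 as the mean paired difference. With 3 against 4 libraries, small differences cannot be resolved.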

Other observations

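Chosen after its values were seen, Shisa8, an auxiliary subunit of AMPA receptors, was at 13.5 CPM in cKO replicate 3, the library in which Cacng5 was also highest, and at 1.65 to 3.19 CPM in the other 6 libraries.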
